A study of Mus musculus with 45 samples.

Results

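The transcripts described here are the 9307 Ensembl transcripts that span at least 20 kb and less than 30 kb from their start site to their end, out of 122968 transcripts in the deposited tables (7.57%). They were chosen by length alone. They come from 5500 genes, and 8326 of them belong to protein-coding genes. The shortest is a Nup214 transcript of 20000 bases and the longest a Bcap31 transcript of 29998 bases, while transcripts of Rbm12 (19999 bases) and Gtf2e1 (30000 bases) lie just outside the limits. The members are not independent of each other, since 5838 share their gene and 913 share their start site with another member.

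RNA polymerase II (RNAPII) initiates at a promoter, pauses shortly downstream, and enters productive elongation once the kinase P-TEFb has phosphorylated Spt5 and the carboxy-terminal domain of the polymerase. The nucleoside analogue DRB blocks P-TEFb, so that polymerases are held near promoters, and its removal lets them leave together as a wave. In 4sU-DRB-seq the uridine analogue 4-thiouridine (4sU) tags the RNA made during a pulse, and the far edge of the tagged RNA marks how far the wave-front has moved. A transcript of intermediate length holds such a front for a limited time, because the front leaves the measured stretch when it passes the transcript end.

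The cells were E14 mouse embryonic stem cells (ESCs) grown in 2i medium on gelatin. WT/WT cells carried the unmodified Polr2a, the gene of the largest RNAPII subunit, WT/slow cells were heterozygous and slow/slow cells homozygous for a knock-in of the R749H change. The mutant cells were made by successive rounds of gene targeting in the parental line, so a genotype and its cell line cannot be told apart. Every sample analysed received DRB (4 h in the labels and 3 h in the study's results text). It was then released for 5, 15 or 30 min and labelled with 4sU in a pulse of fixed length before harvest. By the study's description this pulse was longer than the 5-min release, so that it began before DRB removal there, and shorter than the other releases. There were 3 replicates for each genotype and time and 27 samples in all. The labels number the replicates, and where samples of one number were not processed together the p-values measure only the spread between these samples. The tables hold distances and no expression levels, so the ESC label could not be checked by marker levels, and none of the transcripts of Pou5f1, Nanog, Sox2, Esrrb, Zfp42, Klf4 and Tfcp2l1 is a member.

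The value analysed is the boundary, how far from the start site the wave had reached, given in steps of 100 bases. At least 1 sample gave a boundary for 8084 members, all 27 samples gave one for 3365, and 1223 had none. Over all samples the members had 198564 boundaries between 0.2 and 29.2 kb, and the farthest front lay at 98.4% of its transcript, so that no front was recorded beyond a transcript end. A single distance, 2.5 kb, made up 51.1% of these boundaries, whereas the next commonest, 2.6 kb, made up 0.825%. The sources used here do not say how this value arises, and it is therefore counted separately from the other fronts below. Replicates ranked the members only in part alike, with Spearman's rho between samples of one group from 0.375 to 0.622 at 5 min, 0.359 to 0.437 at 15 min and 0.183 to 0.367 at 30 min.

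The mutated gene is itself a member, and its sequence is shown first because it places the front relative to the codon that distinguishes the genotypes. Polr2a (ENSMUST00000058470) lies on the minus strand of chromosome 11 of GRCm38, spans 24.6 kb and has 29 exons. The reference arginine codon that R749H alters is in exon 14, 15.3 kb from the start site. The stretch around it, chr11:69743326-69743388, reads 5′ to 3′ as below, with the codon in capitals.
Polr2a R749H codon, exon 14: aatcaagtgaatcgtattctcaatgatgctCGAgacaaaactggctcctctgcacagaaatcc
At 5 min the middle of the 3 WT/WT fronts was 15.5 kb, just past this codon in intron 14, and the middle slow/slow front was 7.6 kb, in intron 1. The last 100 bases transcribed up to each of these fronts follow, chr11:69743138-69743237 and chr11:69751038-69751137 on the minus strand, with bases that the RefSeq genome marks as repeats in capitals.
Polr2a WT/WT, 5 min: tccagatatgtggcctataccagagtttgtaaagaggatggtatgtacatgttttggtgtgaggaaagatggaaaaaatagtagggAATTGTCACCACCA
Polr2a slow/slow, 5 min: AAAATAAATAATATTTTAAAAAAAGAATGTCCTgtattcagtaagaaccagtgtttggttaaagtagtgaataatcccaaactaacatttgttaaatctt

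Tmem268 (ENSMUST00000077709, plus strand of chromosome 4, 27.6 kb, 10 exons) and Cnih4 (ENSMUST00000193907, plus strand of chromosome 1, 21.6 kb, 4 exons) had the lowest adjusted p among the named members that were higher in slow/slow at 15 min and at 5 min, respectively, and the 100 bases up to their fronts are shown to locate those differences. Cnih4 encodes a cornichon-family protein that helps cargo leave the endoplasmic reticulum. The Tmem268 windows are chr4:63576181-63576280 in intron 6 (WT/WT, 5 min), chr4:63568481-63568580 across the end of exon 5 (slow/slow, 5 min), chr4:63575581-63575680 in intron 6 (WT/slow, 15 min) and chr4:63583081-63583180 in intron 9 (slow/slow, 15 min). The Cnih4 windows are chr1:181149193-181149292 in intron 1 (WT/WT, 5 min) and chr1:181162693-181162792 in intron 3 (slow/slow, 5 min). Capitals again mark repeat bases.
Tmem268 WT/WT, 5 min, 17.5 kb: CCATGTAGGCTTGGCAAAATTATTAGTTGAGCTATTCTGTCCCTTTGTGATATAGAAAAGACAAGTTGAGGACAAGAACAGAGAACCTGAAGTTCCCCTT
Tmem268 slow/slow, 5 min, 9.8 kb: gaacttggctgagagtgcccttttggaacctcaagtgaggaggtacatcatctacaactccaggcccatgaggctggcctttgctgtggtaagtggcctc
Tmem268 WT/slow, 15 min, 16.9 kb: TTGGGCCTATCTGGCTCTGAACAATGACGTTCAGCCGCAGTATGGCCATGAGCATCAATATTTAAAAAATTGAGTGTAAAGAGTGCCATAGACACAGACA
Tmem268 slow/slow, 15 min, 24.4 kb: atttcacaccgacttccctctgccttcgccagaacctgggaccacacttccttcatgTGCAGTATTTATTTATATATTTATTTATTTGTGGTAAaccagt
Cnih4 WT/WT, 5 min, 4.6 kb: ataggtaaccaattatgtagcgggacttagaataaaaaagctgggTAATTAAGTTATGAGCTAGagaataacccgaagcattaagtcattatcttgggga
Cnih4 slow/slow, 5 min, 18.1 kb: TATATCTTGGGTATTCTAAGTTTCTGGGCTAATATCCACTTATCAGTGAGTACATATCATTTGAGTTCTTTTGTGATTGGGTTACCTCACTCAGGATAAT

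After 5 min, most members held a front inside the transcript. The share of boundaries at 2.5 kb was 25.3, 21.2 and 17.7% in the WT/WT samples, 26.8, 17.6 and 20.8% in WT/slow and 16.8, 17.1 and 18.8% in slow/slow. The other fronts had a median of 9.0, 15.8 and 10.7 kb in WT/WT, 10, 14 and 11.9 kb in the heterozygous WT/slow cells and 11, 10.4 and 8.7 kb in slow/slow. WT/WT replicate 2 lay highest, and the genotypes overlapped. Over all boundaries the median was 6.6, 12.4 and 9.2 kb in WT/WT against 9.8, 9.5 and 7.5 kb in slow/slow. The fronts away from 2.5 kb had covered a median of 36.7, 63.0 and 43.1% of the transcript in WT/WT and 43.5, 41.6 and 34.6% in slow/slow. The slow/slow mean of the median boundary was lower by 0.467 kb, and the sign turned without WT/WT replicate 2 (1.03 kb) or slow/slow replicate 3 (0.25 kb), so the genotypes did not differ in the median boundary beyond the replicate error.

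After 15 min the picture changed in all genotypes. The share of boundaries at 2.5 kb rose to 63.3, 68.2 and 58.4% in WT/WT, 65.3, 64.8 and 66.9% in WT/slow and 65.6, 66.9 and 59.3% in slow/slow, and the median boundary was 2.5 kb in each of these 9 samples. Every 15-min sample thus lay above every 5-min sample, and the genotypes again overlapped in this share. The fronts away from 2.5 kb had a median of 5.9, 5.3 and 5.9 kb in WT/WT, 6.2, 6.7 and 7.2 kb in the heterozygous WT/slow cells and 6.1, 7.7 and 8.4 kb in slow/slow. The WT/WT samples lay below those of both mutants. The means were 5.70 ± 0.346, 6.70 ± 0.5 and 7.40 ± 1.18 kb (SD, n = 3).

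After 30 min, 50.5, 68.7 and 75.1% of WT/WT boundaries were at 2.5 kb, 59.7, 73.2 and 76.2% of WT/slow and 66.5, 70.0 and 69.6% of slow/slow. The spread between replicates was widest here in WT/WT, and no genotype separated from another. The other fronts had medians from 4.45 to 6.6 kb over the 9 samples.

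**Figure D1:**
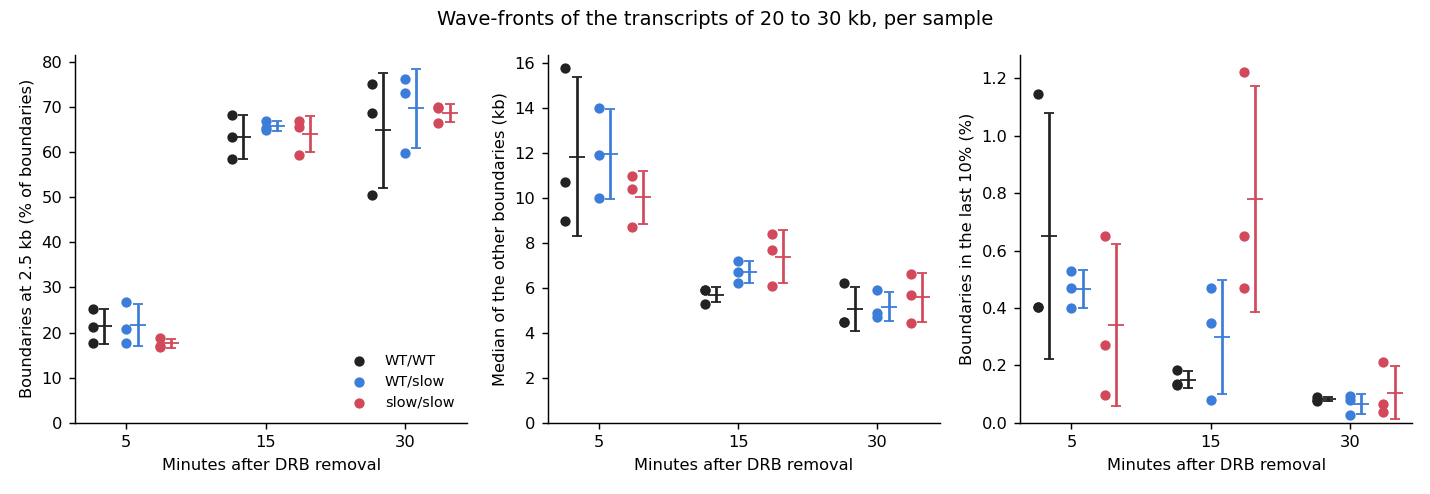
Wave-fronts of the transcripts of 20 to 30 kb at 5, 15 and 30 min after DRB removal in WT/WT (black), WT/slow (blue) and slow/slow (red) ESCs. Points are samples and bars the mean ± SD of 3 samples; the panels give the share of boundaries at 2.5 kb, the median of the other boundaries in kb, and the share of boundaries in the last 10% of the transcript. The share at 2.5 kb rose from 16.8 to 26.8% at 5 min to 58.4 to 68.2% at 15 min, and in the last 10% at 15 min each slow/slow sample lay above each WT/WT sample.

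The members were set against shorter and longer transcripts to see where the genotypes part. At 15 min the share at 2.5 kb in the members was 63.3% ± 4.91 in WT/WT, 65.7% ± 1.12 in WT/slow and 63.9% ± 4.03 in slow/slow (SD, n = 3). In the 34786 transcripts of 5 to 20 kb it was 71.3% ± 2.46, 76.1% ± 1.23 and 76.1% ± 1.43, higher in both mutants than in WT/WT. In the 11913 transcripts of 30 to 60 kb it was 54.7% ± 8.72, 45.7% ± 3.12 and 32.3% ± 5.89, with the means in the opposite order. There the WT/slow samples (43.7 to 49.3%) overlapped those of WT/WT (46.9 to 64.2%), and the slow/slow samples lay below both. The transcripts of 20 to 30 kb lie between the length classes in which the order of the genotypes turns, and the difference between the classes was not tested. The median of the other fronts in the transcripts of 30 to 60 kb was 9.57 ± 1.46, 14.9 ± 2.25 and 23 ± 2.06 kb, farther apart between genotypes than in the members.

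Within the members the shares at 15 min were followed in classes of 1 kb. The slow/slow mean was above WT/WT up to 24 to 25 kb (64.1 and 61.6%) and below it from 25 to 26 kb on (60.9 and 63.4%). The WT/slow mean did not turn steadily, and at 28 to 29 kb it was 66.3% against 64.3% in WT/WT. At 29 to 30 kb the slow/slow samples (42.9 to 65.0%) still overlapped those of WT/WT (60.7 to 69.1%). At 15 min the share at 2.5 kb in the class of 29 to 30 kb minus that in the class of 20 to 21 kb was -8.24, -6.86 and -23.3 percentage points in the slow/slow samples and -7.93, -9.92 and -3.42 in the WT/slow samples. In WT/WT it was 0.354, 2.55 and 2.89 percentage points. All mutant samples moved one way and all WT/WT samples the other, and this difference was not tested. Slow/slow replicate 3 gave the largest change. At 5 min this difference was -3.31, -15.6 and -2.41 percentage points in WT/WT and 0.354, -0.103 and 0.363 in slow/slow.

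**Figure D2:**
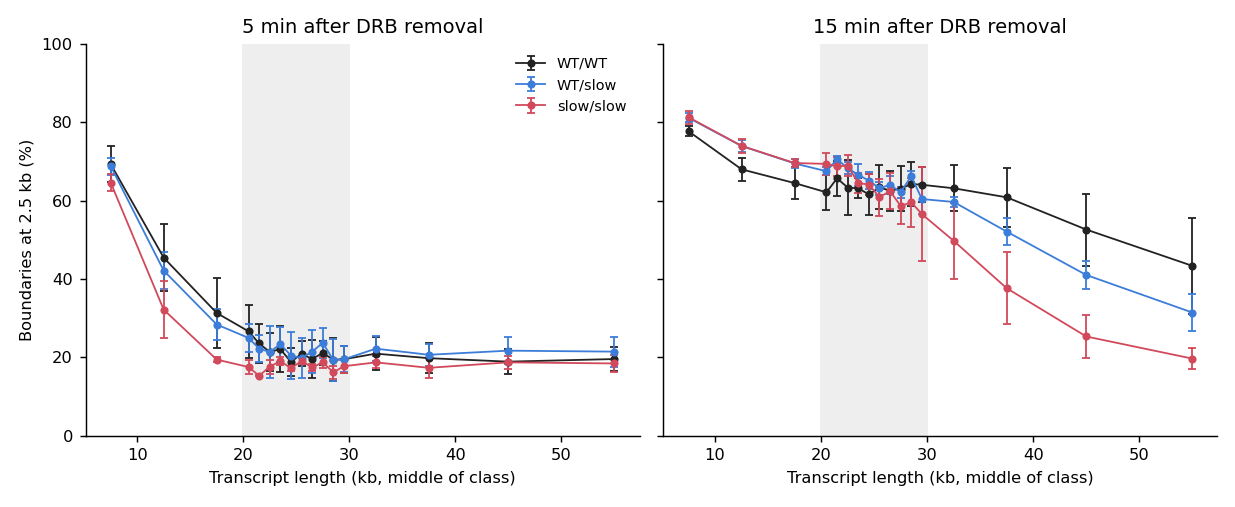
Share of boundaries at 2.5 kb (%) by transcript length class (kb, middle of class) at 5 and 15 min in WT/WT (black), WT/slow (blue) and slow/slow (red) ESCs, as the mean ± SD of 3 samples. The shaded band holds the transcripts of 20 to 30 kb. At 15 min the lines cross inside this band, those of WT/slow and WT/WT repeatedly. Below the band both mutants lie above WT/WT, and at 30 to 35 kb slow/slow is at 49.8% and WT/WT at 63.2%.

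The fate of single transcripts was followed from 5 to 15 min. Samples at these times were matched by replicate number, and the labels do not say that such samples belong together. The change of the boundary, 15 min minus 5 min in samples of the same number, had a median of -1.9, -7.7 and -4.5 kb in WT/WT and -5.7, -6.0 and -2.6 kb in slow/slow. The mean was -4.70 ± 2.91 kb in WT/WT, -4.67 ± 2.56 kb in WT/slow and -4.77 ± 1.88 kb in slow/slow (SD, n = 3), which did not differ beyond the replicate error. A boundary moved forward in 17.0% ± 2.25, 19.0% ± 0.668 and 20.4% ± 4.25 of the members. Where neither boundary was at 2.5 kb, the median change was -1.53 ± 0.764 kb in WT/WT, -0.367 ± 0.551 kb in WT/slow and 0 ± 0.8 kb in slow/slow. A typical member thus did not show a front that advanced between these times.

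In limma fits of 15 against 5 min within a genotype, of 3994 members tested, 846 fell and 22 rose in WT/WT, 935 fell and 32 rose in WT/slow, and 592 fell and 51 rose in slow/slow (adjusted p under 0.05). Over all 24589 transcripts tested, 6.01% fell and 3.38% rose in WT/WT, 6.11% and 5.24% in WT/slow, and 4.19% and 6.03% in slow/slow. The members' shares of falls, 21.2, 23.4 and 14.8%, were above those of all transcripts, and their shares of rises, 0.551, 0.801 and 1.28%, below. Of the members that fell, 604 in WT/WT (71.4%), 765 in WT/slow (81.8%) and 495 in slow/slow (83.6%) stood at 2.5 kb in all 3 samples at 15 min. Their median front at 5 min had been 14.6, 15 and 11.9 kb. In all 3 genotypes 437 members fell, of 1182 that fell in any, and 1 rose of 90 that rose in any. Without the 2.5-kb boundaries 432 members could be tested, of which 12 passed in WT/WT, 9 in WT/slow and 28 in slow/slow. The counts also depended on the replicates, with 556 calls in WT/WT without its replicate 2, 513 and 606 in WT/slow without its replicate 2 or 3, and 203, 174 and 352 in slow/slow without its replicate 1, 2 or 3.

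The share of members at 2.5 kb at 15 min differed with the distance between the 5-min front (the median of its 3 samples) and the transcript end. This distance is set largely by the position of the 5-min front, and whether a 2.5-kb boundary means that the wave had left the transcript was not tested. All 3 fronts were past 2.5 kb at 5 min, and all 6 boundaries were given, in 3582 members in WT/WT, 3482 in WT/slow and 3894 in slow/slow. At 15 min, 63.2, 69.5 and 72.8% of them stood at 2.5 kb in at least 2 of 3 samples. With under 10 kb left to the transcript end this share was 74.0% in WT/WT (905 members), 85.3% in WT/slow (1194) and 81.7% in slow/slow (633). With 22 to 30 kb left it was 37.4% (174 members), 33.8% (154) and 35.2% (165). Each sample was then taken alone, over the wider set of members whose 3 fronts were past 2.5 kb at 5 min (3697 in WT/WT, 3734 in WT/slow and 4662 in slow/slow) and that had a boundary in that sample. The share was lower at the longer distances in each 15-min sample. Split at 14 kb left, the share at 15 min was 67.9, 74.8 and 60.6% below and 51.5, 61.4 and 48.2% at or above in WT/WT, and 78.5, 81.7 and 76.4% below and 65.8, 68.3 and 53.7% at or above in slow/slow. In the WT/slow samples it was 76.1, 74.2 and 78.5% below and 51.2, 50.9 and 53.8% at or above.

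**Figure D3:**
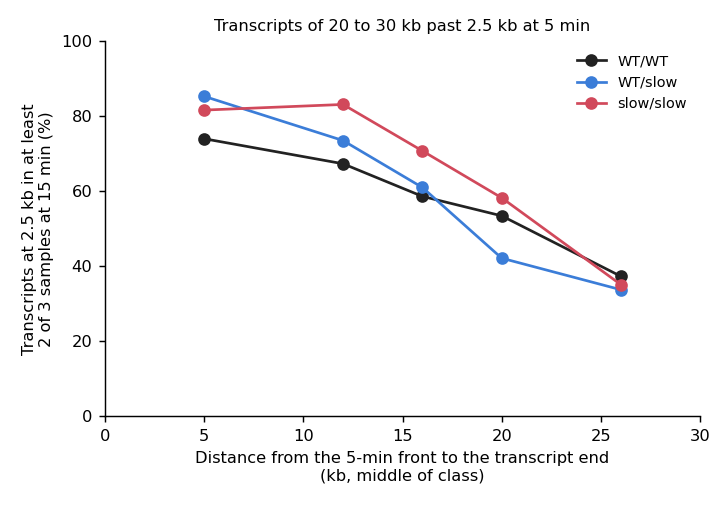
Share of members (%) at 2.5 kb in at least 2 of 3 samples at 15 min, by the distance in kb from the median of the 3 fronts at 5 min to the transcript end (middle of class), in WT/WT (black), WT/slow (blue) and slow/slow (red) ESCs, over members whose 3 fronts were past 2.5 kb at 5 min. The lines fall from between 74.0 and 85.3% in the class of the shortest distance to between 33.8 and 37.4% in that of the longest.

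Fronts near the transcript end were few at each time. At 5 min, 0.403, 1.15 and 0.404% of WT/WT boundaries, 0.470, 0.530 and 0.399% of WT/slow and 0.652, 0.09855 and 0.271% of slow/slow lay in the last 10% of the transcript. At 15 min it was 0.184, 0.131 and 0.135% in WT/WT (14, 10 and 10 boundaries), 0.08, 0.349 and 0.470% in WT/slow (6, 26 and 35) and 0.469, 0.651 and 1.22% in slow/slow (35, 46 and 87). Each slow/slow sample lay above each WT/WT sample, a difference of 0.631 percentage points between the means 0.781% ± 0.393 and 0.150% ± 0.0295 (SD, n = 3), which was 0.0788 in the last 5% of the transcript. Fronts of at least 20 kb followed the same order at 15 min, with 1.23, 0.979 and 1.24% in WT/WT, 1.65, 2.13 and 2.20% in WT/slow and 2.39, 2.75 and 5.51% in slow/slow. By 30 min at most 0.212% of the boundaries of any sample lay in the last 10%.

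The members whose front stood in the last 10% in at least 2 of 3 samples are named here after their values were seen. At 15 min they were 11 transcripts of Cdca7l, Lctl, Palm, Psap, Qsox2 and Rbpms2 in slow/slow, 2 of Ephx1 in WT/WT and 1 of Tapt1 in WT/slow. Psap encodes the precursor of the lysosomal saposins and Ephx1 the microsomal epoxide hydrolase. At 5 min they were 4 transcripts of Nsmaf, Smarce1 and St14 in WT/WT, 1 of Abcb1a in WT/slow and 2 of Myo1c in slow/slow, and at 30 min 1 of Lemd1 in WT/slow. Fronts beyond the midpoint of the transcript in all 3 samples were seen in 469 members in WT/WT, 793 in WT/slow and 416 in slow/slow at 5 min, and in 67, 85 and 109 at 15 min.

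Polr2a itself followed the general course. At 5 min its front was at 15.5, 18.5 and 10.3 kb in WT/WT, 12.4, 15.7 and 6.8 kb in the heterozygous WT/slow cells and 12.9, 7.6 and 6.4 kb in slow/slow. The middle WT/WT front was past the R749H codon, whereas no slow/slow front reached it, and the WT/WT and slow/slow samples overlapped (difference -5.80 ± 3.15 kb (SE), limma adjusted p = 0.653). At 15 min the boundaries given were 13 and 2.5 kb in WT/WT, 2.5, 2.8 and 10.1 kb in the heterozygous WT/slow cells and 2.5 and 2.5 kb in slow/slow. The shorter transcript ENSMUST00000071213, which shares most of this sequence, gave 15.2, 18.2 and 12.3 kb in WT/WT and 10.2, 7.0 and 5.1 kb in slow/slow at 5 min, without overlap (difference -7.80 ± 3.06 kb (SE), limma adjusted p = 0.543).

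The genotypes were then compared transcript by transcript. At 5 min, 2 of 4979 members tested differed between slow/slow and WT/WT in limma fits (adjusted p under 0.05), both higher in slow/slow, against 0.0622% of all 28928 transcripts tested (0.0207% higher and 0.0415% lower). At an unadjusted p under 0.05, 92 members were higher and 319 lower. The median difference over the members was -1.33 kb, and over all transcripts tested -1.38 kb. Of the members, 648 had slow/slow and WT/WT samples that did not overlap, 159 higher and 489 lower in slow/slow, where 14.2% of all transcripts tested did so (3.0% higher and 11.2% lower). Cnih4 was at 4.6, 5.1 and 2.5 kb in WT/WT, 2.5, 2.9 and 3.6 kb in the heterozygous WT/slow cells and 18.1, 18.6 and 17.5 kb in slow/slow (slow/slow minus WT/WT 14 ± 1.24 kb (SE), limma adjusted p = 0.0170). The slow/slow front lay in intron 3 and the others in intron 1, at the windows printed above.

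Stard10, a START-domain lipid transfer protein, was the other member called. Its front was at 0.9, 3.8 and 0.9 kb in WT/WT, 18.5, 17.2 and 21.6 kb in the heterozygous WT/slow cells and 20.9, 16.5 and 17.7 kb in slow/slow (slow/slow minus WT/WT 16.5 ± 1.85 kb (SE), limma adjusted p = 0.0498). Both mutants lay above WT/WT. Neither call at 5 min held with the replicate number as a block or on the log2 scale, and that of Cnih4 was also lost without slow/slow replicate 2 or 3 and that of Stard10 without any 1 sample other than WT/WT replicate 2. In WT/slow against WT/WT at 5 min, 1 member was called, higher in WT/slow, against 0.0346% of all transcripts (0.00691% higher and 0.0277% lower). With the block, limma called 0, with 302 members at an unadjusted p under 0.05.

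At 15 min, 109 of 4474 members differed between slow/slow and WT/WT, 63 higher (52 genes) and 46 lower (41 genes) in slow/slow, against 3.68% of all 31668 transcripts tested (2.76% higher and 0.919% lower). Samples of the genotypes did not overlap in 659 members, 341 higher and 318 lower, where 17.8% of all transcripts tested did not (10.9% higher and 6.86% lower). The count was 166 without slow/slow replicate 1 and 72 with the replicate block, and without any 1 WT/WT replicate more members were lower than higher (48 higher and 72 lower, 43 and 104, and 57 and 81). In 31 of the 63 the WT/WT samples were all at 2.5 kb, and in 29 of the 46 the slow/slow samples were. Many of the calls thus set a front in one genotype against 2.5 kb in the other, and when the 2.5-kb boundaries were left out, 775 members could be tested and 9 passed. The members called higher had a median front of 14.4 kb in slow/slow and 2.5 kb in WT/WT, and those called lower 2.5 kb in slow/slow and 10.5 kb in WT/WT.

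In Tmem268, WT/slow lay between the other genotypes at 15 min. At 5 min its front was at 17.5, 17.7 and 14.2 kb in WT/WT, 10.3, 15.1 and 14.8 kb in the heterozygous WT/slow cells and 11.8, 9.8 and 8.1 kb in slow/slow, with no overlap between slow/slow and WT/WT (difference -6.57 ± 1.92 kb (SE), limma adjusted p = 0.392). At 15 min it was at 2.5 kb in all 3 WT/WT samples, at 16.1, 17.7 and 16.9 kb in WT/slow and at 25.4, 24.4 and 23.4 kb in slow/slow. The difference between slow/slow and WT/WT was 21.9 ± 0.690 kb (SE, limma adjusted p = 6.25e-06), and the transcript ends at 27.6 kb. At 30 min all 9 samples were at 2.5 kb. At 5 min the slow/slow fronts thus lay below those of WT/WT and overlapped those of WT/slow. At 15 min they lay beyond those of WT/slow, while WT/WT was at 2.5 kb and is not ranked. By 30 min no sample of any genotype was away from 2.5 kb.

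Pm20d1, a secreted enzyme of N-acyl amino acid metabolism (ENSMUST00000048660, chromosome 1, 24.1 kb), took a similar course. At 15 min it was at 2.5, 2.5 and 3.2 kb in WT/WT, 18.1, 21 and 17.1 kb in the heterozygous WT/slow cells and 20.3, 21.6 and 21.4 kb in slow/slow (slow/slow minus WT/WT 18.4 ± 1.04 kb (SE), limma adjusted p = 0.000121). Its 5-min fronts overlapped between genotypes, with 7.1, 16.3 and 4.0 kb in WT/WT and 7.0, 8.2 and 6.9 kb in slow/slow. A second Pm20d1 transcript (ENSMUST00000112393) spans nearly the same bases and is not a separate observation. Its fronts were close to these except in WT/WT replicate 3 at 5 min, where it was at 12.4 kb.

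Il6st, the receptor subunit through which leukaemia inhibitory factor signals in ESCs (ENSMUST00000183513, chromosome 13, 28.7 kb, 3 exons), stood at the unexplained 2.5 kb at 5 min in slow/slow. At 5 min it was at 7.8, 9.6 and 7.8 kb in WT/WT, 2.5, 7.7 and 8.7 kb in the heterozygous WT/slow cells and 2.5 kb in all 3 slow/slow samples. At 15 min it was at 7.8, 2.5 and 2.5 kb in WT/WT, 16.4, 16 and 15.2 kb in the heterozygous WT/slow cells and 23.2, 24.9 and 16.9 kb in slow/slow (slow/slow minus WT/WT 17.4 ± 2.36 kb (SE), limma adjusted p = 0.00911). The middle boundary of each genotype lay in intron 1 at both times. WT/slow lay between the other genotypes at 15 min.

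Tpcn2, an endolysosomal cation channel, was at 2.5 kb in all WT/WT samples at 15 min and at 23.4, 27.4 and 23.7 kb in slow/slow (difference 22.3 ± 1.19 kb (SE), limma adjusted p = 8.75e-05). Its WT/slow samples were at 2.5, 2.5 and 4.6 kb, on the side of WT/WT. The other members named as higher in slow/slow were Pnpla8 and Pnpla6, both phospholipases, Rbm28, a nucleolar RNA-binding protein, Snx19, a sorting nexin, Esco1, a cohesin acetyltransferase, and Cnot6, a deadenylase of the CCR4-NOT complex. Their differences ranged from 15.4 kb in Cnot6 to 19.0 kb in Pnpla8, and their WT/slow fronts were within 6.2 kb of the start site. The call of Pnpla8 was lost with the block and without any WT/WT replicate or slow/slow replicate 3.

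Gne, which starts sialic acid synthesis (ENSMUST00000133709, minus strand of chromosome 4, 26.7 kb), moved from 9.7, 9.6 and 11 kb at 5 min to 19.6, 13.3 and 23.4 kb at 15 min in WT/WT, and was at 14.4, 16.9 and 22.6 kb at 30 min. In slow/slow it was at 10, 9.4 and 3.6 kb at 5 min and at 2.5, 2.5 and 3.9 kb at 15 min, and in WT/slow at 2.5 kb in all samples at 15 min. The difference between slow/slow and WT/WT was -15.8 ± 2.33 kb at 15 min (SE, limma adjusted p = 0.0131) and -15.5 ± 1.92 kb at 30 min (SE, limma adjusted p = 0.0147). WT/slow sided with slow/slow in this gene. Tamm41, an enzyme of mitochondrial cardiolipin synthesis, stood at 15.5 kb in all 3 WT/WT samples at 15 min and at 2.5 kb in all 6 mutant samples (difference -13 ± 0.389 kb (SE), limma adjusted p = 4.91e-06). The Tamm41 values at 15 min did not vary within a genotype, so this SE and p come from the spread limma takes from other transcripts. Its WT/WT front had been at 15.5, 16.4 and 15.5 kb at 5 min and so did not advance.

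The other members named as lower were Slc45a1, Dlg4, Madd, Emp1, Cadm4, Tmem30c, Ccdc114 and Gm17399, with differences from -14.4 to -11.5 kb. Dlg4, the postsynaptic scaffold PSD-95, advanced in WT/WT from 2.5, 3.3 and 2.6 kb at 5 min to 23.9, 18.2 and 21.4 kb at 15 min. Its slow/slow fronts were at 8.9, 22.3 and 4.5 kb and then at 6.5, 7.2 and 6.7 kb. The Dlg4 call was lost with the block, on the log2 scale and without slow/slow replicate 3, and that of Slc45a1 without any slow/slow replicate or WT/WT replicate 1 or 2. In Tmem30c the WT/slow samples, at 16.6, 15.6 and 19.1 kb, lay with WT/WT.

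**Figure D4:**
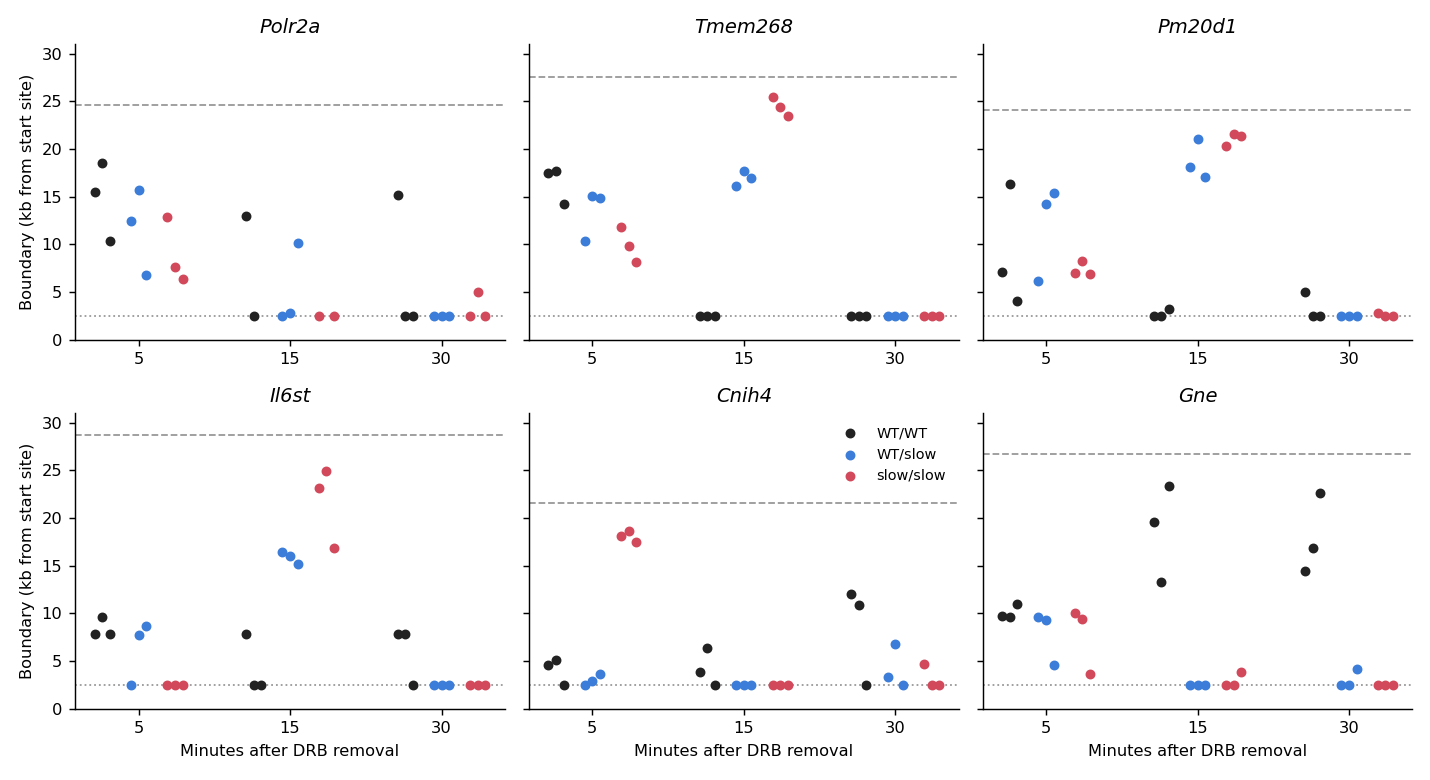
Boundary (kb from the start site) of Polr2a, Tmem268, Pm20d1, Il6st, Cnih4 and Gne at 5, 15 and 30 min in WT/WT (black), WT/slow (blue) and slow/slow (red) ESCs; each point is a sample. The dashed line is the transcript end and the dotted line 2.5 kb. At 15 min the slow/slow samples of Tmem268 lay at 23.4 to 25.4 kb with all WT/WT samples at 2.5 kb, and those of Gne at 2.5 to 3.9 kb with WT/WT at 13.3 to 23.4 kb.

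In WT/slow against WT/WT at 15 min, 23 members were higher and 42 lower in WT/slow, against 1.55% of all transcripts tested (0.928% higher and 0.622% lower). The split rested on single samples. It was 19 higher and 94 lower without WT/WT replicate 2, but 59 higher and 39 lower without WT/slow replicate 1 and 52 and 34 without WT/slow replicate 3. Tmem268 (14.4 ± 0.690 kb (SE), limma adjusted p = 0.000266) and Pm20d1 (16 ± 1.04 kb (SE), limma adjusted p = 0.00112) were higher in the heterozygous cells too, and Gne (-16.3 ± 2.33 kb (SE), limma adjusted p = 0.0236) was lower. At 30 min, 39 members were higher and 29 lower in slow/slow than in WT/WT, against 1.13% of all 28401 transcripts (0.694% higher and 0.433% lower), and the 68 calls became 143 without WT/WT replicate 3 and 121 and 103 without slow/slow replicate 2 or 3. More were lower than higher without WT/WT replicate 1 (26 higher and 37 lower), 2 (26 and 56) or 3 (33 and 110). In WT/slow 9 were higher and 21 lower at 30 min, against 0.532% (0.239% and 0.292%), and 1 and 8 with the replicate block. That split turned to 21 higher and 16 lower, 25 and 12, and 55 and 17 without WT/slow replicate 1, 2 or 3, and the calls rose to 53 and 107 without WT/WT replicate 2 or 3. These comparisons share the WT/WT samples. Slow/slow set directly against WT/slow gave 1 member higher and 1 lower at 5 min, against 0.0173% of all transcripts (0.00691% and 0.0104%). It gave 49 higher and 20 lower at 15 min, against 2.17% (1.75% and 0.42%), and 29 higher and 14 lower at 30 min, against 0.768% (0.507% and 0.261%). Neither split held: at 15 min it was 32 higher and 53 lower without WT/slow replicate 1 and 46 and 50 without WT/slow replicate 3, and at 30 min 22 and 22, 25 and 32, and 27 and 64 without WT/slow replicate 1, 2 or 3.

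The change from 5 to 15 min differed between slow/slow and WT/WT in 44 of 3994 members, 37 higher and 7 lower in slow/slow, against 3.14% of all 24589 transcripts (2.93% and 0.207%). Between WT/slow and WT/WT it differed in 9, 7 higher and 2 lower, against 0.561% (0.492% and 0.0691%), and 3 higher and 9 lower without WT/WT replicate 2. The slow/slow count was 24 without WT/WT replicate 2, 26 without slow/slow replicate 2 and 74 without slow/slow replicate 1. A higher change here means that the boundary rose more or fell less, and a fall can be a switch to 2.5 kb. In Tmem268 the slow/slow front advanced by 14.5 ± 0.854 kb (SD, n = 3), while the WT/WT boundary stood at 2.5 kb in all 3 samples at 15 min. The WT/WT change to that value was -14.0 ± 1.97 kb (SD, n = 3). It is part of the difference of 28.5 ± 2.16 kb (SE, limma adjusted p = 1.64e-05), and the sources used do not say how the 2.5-kb value arises. Ube3a, an E3 ubiquitin ligase, went from 2.5 kb in all slow/slow samples at 5 min to 23, 21.8 and 17.2 kb at 15 min, and from 6.2, 21.2 and 22 kb to 6.2 kb in all 3 in WT/WT (difference 28.4 ± 5.35 kb (SE), limma adjusted p = 0.00878). The Ube3a call was lost without WT/WT or slow/slow replicate 2. In Tbc1d14, a regulator of membrane recycling, the change differed by 25 kb (SE 3.09 kb, limma adjusted p = 0.000376). Its mean change was 16.6 kb in slow/slow and -8.43 kb in WT/WT. With samples matched by number, the changes did not overlap in 460 members, 340 higher and 120 lower. Over all transcripts tested, 17.3% did not overlap (13.1% higher and 4.25% lower). The main limma fits do not use this matching.

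Members of functional gene lists were described by their counts. The lists cover RNAPII, elongation and termination factors (97 member transcripts), splicing (121), chromatin regulators (194), DNA replication and repair (125), cell cycle (111), ubiquitin ligases and deubiquitinases (237), pluripotency and LIF signalling (54), translation (92), nuclear pore and transport (65) and membrane traffic (144). In each list the share at 2.5 kb was lower at 5 than at 15 min in WT/WT and slow/slow. Translation factors had the lowest share at 5 min in WT/WT, 9.37% ± 5.92 (SD, n = 3), and rose to 76.7% ± 6.06 at 15 min. In slow/slow they went from 7.15% ± 3.81 to 87.7% ± 5.70. Chromatin regulators went from 24.2% ± 6.61 to 63.9% ± 3.44 in WT/WT.

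Falls between 5 and 15 min were found in every list, with 1 exception. Their shares are to be read beside the 21.2, 23.4 and 14.8% of all members tested that fell in the 3 genotypes, and the 6.01, 6.11 and 4.19% of all transcripts. Of 60 translation members tested, 26 fell in WT/WT, 27 in WT/slow and 14 in slow/slow and 0 rose in WT/WT or slow/slow. They included Eif3b, Aars and Nol8 in both of these genotypes. Of 54 RNAPII members, 12, 20 and 8 fell, and 2 (Med23 and Rprd1b) rose in each of WT/slow and slow/slow. Those that fell included Supt5, the Spt5 subunit that P-TEFb phosphorylates, and Ctr9, a PAF complex subunit. Of 42 nuclear pore and transport members 15, 17 and 14 fell. Xpo1, the main nuclear export receptor, went from 10.6, 20.1 and 13.6 kb to 2.7 kb in all 3 WT/WT samples (-12.1 ± 2.5 kb (SE), limma adjusted p = 0.00713). The exception was pluripotency and LIF signalling, where 8 of 29 fell in WT/WT and 11 in WT/slow, and limma called 0 falls in slow/slow, with 8 at an unadjusted p under 0.05. The 8 in WT/WT were transcripts of only Smad7, Tcf3 and Yap1, and the 11 in WT/slow of these genes and Zfp326. Several transcripts of 1 gene are thus counted here. The difference between these counts was not tested.

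**Figure D5:**
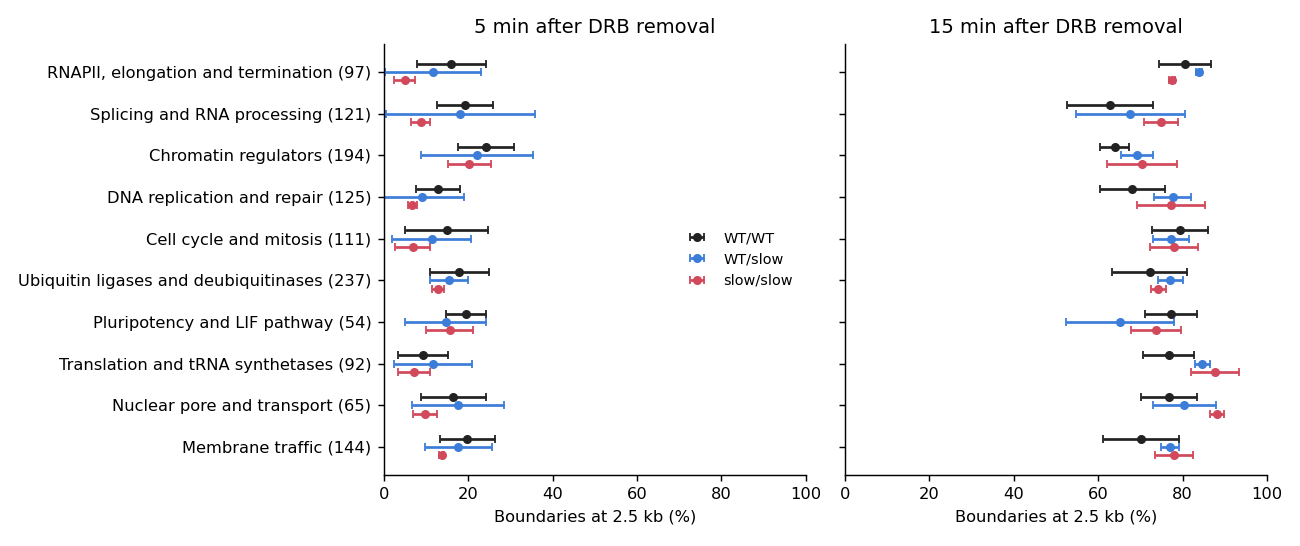
Share of boundaries at 2.5 kb (%) at 5 and 15 min in the member transcripts of 10 gene lists (number of transcripts in brackets) in WT/WT (black), WT/slow (blue) and slow/slow (red) ESCs, as the mean ± SD of 3 samples. Every list moved to the right, for example translation in WT/WT from 9.37 to 76.7%.

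Between slow/slow and WT/WT few list members passed. At 5 min limma called 0 members in each of the 10 lists, with between 0 members (nuclear pore and transport) and 2 higher and 9 lower (ubiquitin ligases) at an unadjusted p under 0.05. The median difference ranged from -3.63 kb in the 41 pluripotency members tested to -0.47 kb in the 119 chromatin members, beside -1.38 kb over all transcripts. At 15 min the limma counts ran from 0 of 41 translation members, with 0 at an unadjusted p under 0.05, to 5 of 101 chromatin regulators, where 3.68% of all transcripts were called. Among the chromatin regulators Ezh2, the catalytic Polycomb subunit, and Rbbp4 were higher and Rbbp5 and Srcap lower. Rbbp4, a histone chaperone, was at 2.5 kb in all 3 WT/WT samples, at 4.1, 4.0 and 4.1 kb in WT/slow and at 4.7 kb in all 3 slow/slow samples (2.20 ± 0.390 kb (SE), limma adjusted p = 0.0290). The Rbbp4 values hardly varied within a genotype, so this SE too comes mostly from the spread of other transcripts. Among 49 RNAPII factors Aff4, a scaffold of the super elongation complex, and Rprd1b were higher. Sun1, a protein of the nuclear envelope, was lower, at 5.6, 4.4 and 4.4 kb in WT/WT and 2.5 kb in all 6 mutant samples.

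What the members share in sequence was compared with the position of their fronts. In the 8798 members whose start and end match GENCODE M21, the median GC content was 44.2%, repeats made up 26.0%, exons 7.49% and the median first intron was 5.05 kb. The 100 bases up to a front past 2.5 kb were exonic in 5.47% ± 1.02 of bases in WT/WT at 5 min, against 9.37% ± 0.0606 of the transcript beyond 2.5 kb, and in 4.46% ± 0.452 against 9.45% ± 0.118 in slow/slow (SD, n = 3). With the last exon left out the values in WT/WT were 4.93% at the front and 4.94% beyond 2.5 kb, and in slow/slow 4.18% and 4.91%. GC at the front was 44.6% in WT/WT and 44.3% in slow/slow at 5 min, and repeats 28.2% and 28.6%, close to the 44.8 and 44.7% GC and the 27.4 and 27.5% repeats beyond 2.5 kb. Members in the highest of 3 classes of GC content had a boundary in 88.0% of cases in WT/WT at 5 min and those in the lowest in 64.9%. The share of 5-min boundaries at 2.5 kb in WT/WT was 24.9% ± 3.24 in members of 1 to 5 exons and 19.0% ± 3.5 in those of 10 to 69 exons, lower in each of the 3 samples. Expression and read depth are not in these tables, and their part in these values was not tested.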

How the data were processed

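4sU-DRB-seq was analysed in 27 samples, 3 genotypes at 3 times with 3 replicates. Of the 45 labelled samples, 18 were not analysed here: those taken at 0 min and those that received no DRB. Per the labels and the study's methods, the authors aligned reads to mm10 (GRCm38) with Bowtie2 2.2.9, kept unique non-rRNA reads and located the end of the wave with published software, each sample set against the average of the 0 min samples. The deposited unit is a distance in bases and not a count, so sequencing depth is unknown and the spread between replicates is the only measure of precision.

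Members were found by length in the tables. limma 3.58.1 (R 4.3.3) was fitted to boundaries in bases, and differences are given in kb. It took all transcripts with a boundary in every sample of the fit and not 1 value throughout. Fits were made per time (9 samples) and for the change from 5 to 15 min (18 samples). Benjamini-Hochberg adjustment ran over all transcripts tested, with a threshold of 0.05. The contrasts of 15 against 5 min within a genotype were added after seeing the data. Summaries over members carry no p. Positions, exons and repeats came from GENCODE M21 and the RefSeq genome of GRCm38. Python 3.11.15, pandas 2.3.3 and Matplotlib 3.10.9 were used. The fit was tested on simulated data: of 200 transcripts changed at 5 min among 28928, it recovered 0% at 5 kb, 10% at 10 kb and 42% at 20 kb. False calls were 0, 1 and 9, and 0 with no transcript changed. The values were drawn from a normal distribution with each transcript's mean and SD. They lacked the excess at 2.5 kb and any limit at the transcript end, so recovery may differ in the real boundaries.

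Named members were up to 10 rises and 10 falls per comparison of slow/slow with WT/WT (5 min, 15 min, change) with the largest difference among called members whose samples did not overlap, 1 transcript per gene, up to 3 per gene list with the most boundaries away from 2.5 kb, and Polr2a. Other list members past the threshold were named after their values were seen. The members and lists were chosen with earlier results of these data known.

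Replicate numbers are shared between genotypes. Between same-numbered samples, deviations around the group mean were correlated. For WT/slow and WT/WT r was 0.272, 0.344 and 0.125 at 5 min, 0.0944, 0.150 and 0.206 at 15 min and 0.183, 0.158 and 0.197 at 30 min. The main fits carry no replicate term, and counts with the replicate block are given as an alternative. Between slow/slow and WT/WT r was at most 0.130 and at least 0.0268. Alternatives were the replicate block, log2 boundaries, a boundary in at least 2 of 3 replicates, the 2.5-kb boundaries left out, transcripts at 1 value kept, robust variance shrinkage, 1 transcript per gene and each replicate left out.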

Additional observations from a re-analysis of the deposited data

Results flagged for a closer look

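The change from 5 to 15 min differed between slow/slow and WT/WT cells, by the genotype-by-time term of limma, in 44 members. The named members among them, with the difference in change (slow/slow minus WT/WT), were the following. The largest positive differences were in Tpcn2 (29.5 kb), Tmem268 (28.5 kb) and Ube3a (28.4 kb). In these the mean slow/slow change was 17.1, 14.5 and 18.2 kb and the mean WT/WT change -12.4, -14.0 and -10.3 kb. Tbc1d14 followed with 25 kb, Pnpla8 with 23.7 kb, Il6st with 23.3 kb and the Pm20d1 transcript ENSMUST00000112393 with 23.2 kb. Esco1 differed by 21.7 kb, Gpcpd1, a glycerophosphocholine phosphodiesterase, by 20.2 kb and Rbm28 by 20.1 kb. The change was smaller or more negative in slow/slow in Dlg4 (-23.5 kb), Nmt1, an N-myristoyltransferase (-16.0 kb), Cnih4 (-15.8 kb) and Gne (-13.4 kb), and in Tamm41 (-9.33 kb), Gm973 (-9.00 kb) and Rhbdl2, a rhomboid protease (-6.83 kb). The Rhbdl2 front advanced in every WT/WT sample, as did those of Dlg4 and Gne: it went from 5.9, 7.6 and 5.5 kb to 14.6, 12.0 and 14.8 kb, while it stayed between 5.9 and 6.8 kb in slow/slow. Without a single sample, the calls of Nmt1, Gm973 and Rhbdl2 were each lost for 5 of the 6 samples, those of Gne and Gpcpd1 for 4, and those of Tpcn2, Tmem268, Il6st, Pm20d1, Tbc1d14, Tamm41 and Cnih4 for none. With the 2.5-kb boundaries left out, most named results of slow/slow against WT/WT, at single times and for the change, could not be tested. Of those that could, 2 stayed called and 5 did not.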

How the results depend on the processing

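Of the values recomputed for the main comparisons under all alternatives, 138 stayed within the margin (the spread between replicates, or 1.5 times a count) and 64 did not. The split of calls between higher and lower turned in several comparisons when single replicates were left out, as given with each comparison. With the replicate number as a block, slow/slow against WT/WT gave 0 member calls at 5 min (2 without the block), 72 at 15 min (109) and 39 at 30 min (68), and WT/slow against WT/WT 0 at 5 min (1) and 38 at 15 min (65); the change from 5 to 15 min gave 41 (44), and 15 against 5 min within WT/WT, WT/slow and slow/slow 893, 1005 and 685 (868, 967 and 643). The labels do not say whether same-numbered slow/slow and WT/WT samples were processed together.

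With a boundary in at least 2 of 3 replicates, the calls were 8 at 5 min, 164 at 15 min, 100 for the change, 3 for WT/slow at 5 min, and 1594, 1894 and 1511 within the genotypes. With 2.5-kb boundaries left out they were 0, 9 and 11 at 5, 15 and 30 min, 1 for the change, 0 and 3 for WT/slow at 5 and 15 min, and 12, 9 and 28 within the genotypes. With transcripts at 1 value kept, they were 7 at 5 min and 4 and 104 for WT/slow at 5 and 15 min, and at 15 min the split of slow/slow against WT/WT turned to 74 higher and 81 lower. Robust shrinkage gave 1 at 5 min. On the log2 scale WT/slow at 5 min gave 6 and 15 against 5 min within slow/slow 1280. With 1 transcript per gene the calls were 1, 68 and 39 at 5, 15 and 30 min, 0 for WT/slow at 5 min, 27 for the change and 482, 538 and 357 within the genotypes.

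Leaving out each replicate gave 0 to 5, 120 to 166 and 63 to 143 calls at 5, 15 and 30 min, 1 to 10 and 68 to 113 for WT/slow at 5 and 15 min, 24 to 74 for the change, and 556 to 978, 513 to 1100 and 174 to 352 within the genotypes. The median boundary, slow/slow minus WT/WT, was 0 kb at 15 and 30 min, 1.70 and 0.517 kb with 2.5-kb boundaries left out, and 0.636 and -0.0749 kb as a mean. At 5 min it ran from -1.87 to 1.03 kb without single replicates. The difference at the transcript end at 15 min was 0.631 percentage points, 0.0788 in the last 5% and 1.70 as a share of fronts away from 2.5 kb, and 0.411 to 0.787 without single replicates. The causes were not tested, other than that settings with fewer boundaries or samples test other sets of transcripts.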
